A study of Mus musculus with 6 samples.

Results

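Respiratory complex I is described here through the genes whose symbols start with Nduf, which name its nuclear-encoded subunits and several of its assembly factors. The members were all probe sets with a single such symbol in the platform annotation. They came to 74 of 22626 probe sets, for 39 of the 12393 genes that had a probe set with 1 symbol. RNA was measured in cochlear tissue of the inbred mouse strain DBA/2J, from males only, aged 7 weeks in 3 samples and 36 weeks in 3 samples. Each sample had its own single-colour Affymetrix array. The submitters' design sets the ages against each other to study age-related hearing loss. All mice shared the strain, sex and housing, and the labels name no treatment or engineered allele. Nothing in the labels says whether the samples came from separate animals or pools, so p-values measure only the spread between these samples, which may be technical.

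Complex I is the L-shaped enzyme of the inner mitochondrial membrane that takes electrons from NADH, passes them along iron-sulphur clusters to ubiquinone and pumps protons. Its peripheral arm holds the NADH-oxidising (N) and ubiquinone-reducing (Q) modules, its membrane arm pumps the protons, and accessory subunits surround a catalytic core. The membrane core subunits are encoded by mitochondrial DNA, and assembly factors build the enzyme without staying in it. In the cochlea, ion transport by the stria vascularis and the activity of hair cells are known to demand much ATP.

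The complex I genes were lower at 36 weeks in most of the subunits. Each gene was represented by its tested probe set with the highest mean over the 6 arrays. By that measure 26 of 39 genes fell, 0 rose and 13 did not pass, at a Benjamini-Hochberg adjusted p under 0.05 from limma over 13575 tested probe sets. The background was 17.3% lower and 17.1% higher among all genes counted the same way. All 39 log2 differences, 36 weeks minus 7 weeks on log2(signal + 50), were negative, from -0.94 to -0.03 with a median of -0.37, beside a median of 0.02 over all genes. In 31 genes every 36-week array was below every 7-week array, against 24% of all genes, and in 8 the ages overlapped. In bulk tissue, fewer cells of a type and less RNA per cell cannot be told apart.

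The members are mostly bright, and bright genes were called more often. Among genes with a mean signal over 4000, 36.3% were lower and 23.1% higher, and of the 32 members in that range 25 were lower and 0 higher. Of the 7 dimmer members 1 was lower, which is near the 13.2% lower among all genes with a mean signal of at most 4000. These 7 are the 5 assembly factors, Ndufb1 and Ndufs4. The standard error of a difference was 0.06 to 0.15 over the subunit genes except Ndufb1, at 0.27, and 0.16 to 0.23 over the assembly factors.

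**Figure D1:**
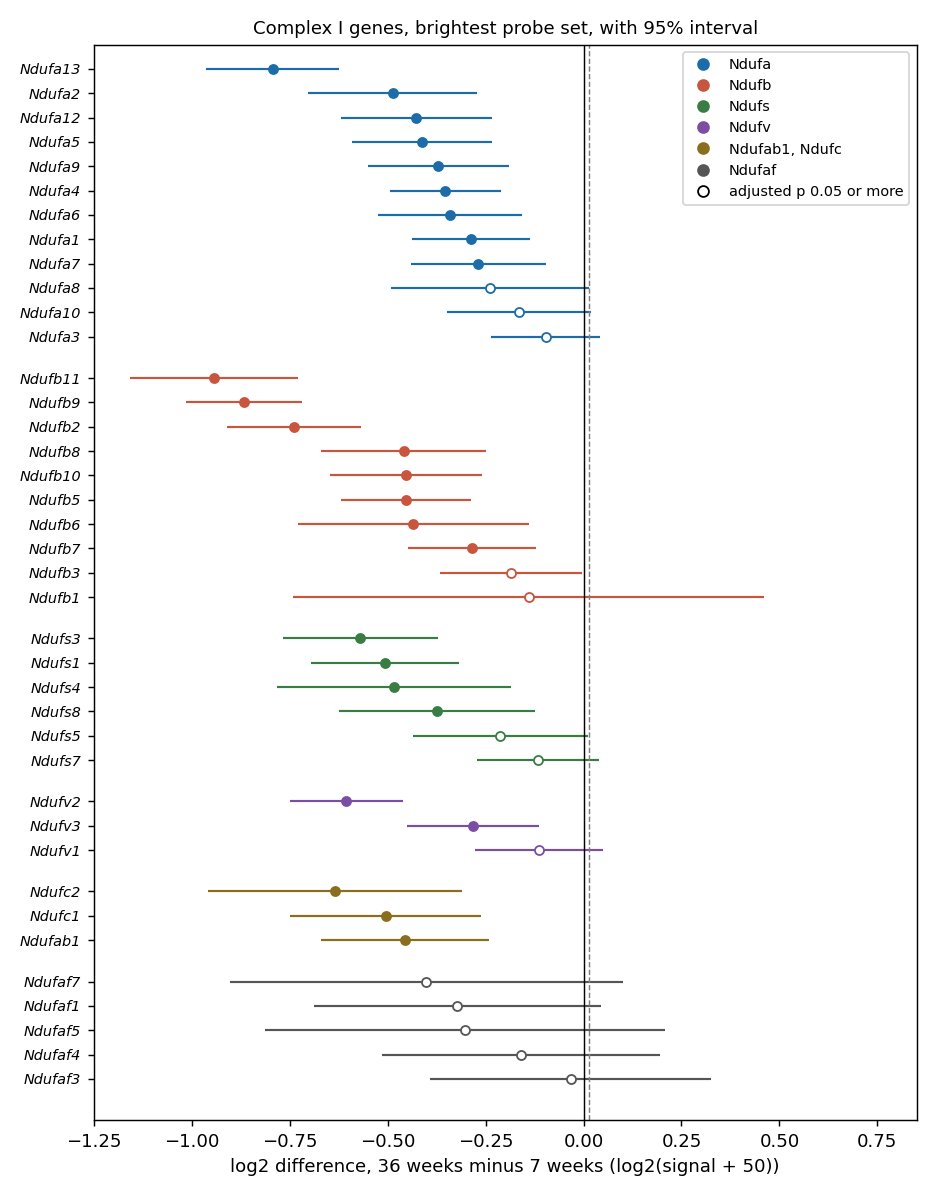
Log2 difference of each of the 39 complex I genes, 36 weeks minus 7 weeks on log2(signal + 50), by its brightest tested probe set. Horizontal bars are 95% intervals from limma, filled points passed an adjusted p under 0.05 and the dashed line is the median of all tested probe sets at 0.02; all 39 points lie below 0, and the 5 assembly factors are open.

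The 2 ages also differed in markers of other tissues, and the part of these differences in the results for complex I was not tested. All 12 skeletal muscle markers listed fell (median -1.66), and their summed signal was 333787 to 351983 on the 7-week arrays and 114461 to 120010 on the 36-week arrays. All 10 neutrophil and precursor markers rose (median 3.90), from summed signals of 48909 to 54371 up to 715284 to 763221. The 6 secretory mucosa markers (91527 to 102402 at 7 weeks, 342192 to 365015 at 36 weeks) and the 6 cerebellum markers (17361 to 18249, then 66809 to 70462) rose as well. Of 15 cochlear markers 11 were tested and 9 fell, while Tecta, Slc26a5, Pou4f3 and Kcne1 lay below the filter on low values. Kcnq1 (-0.92, limma adjusted p = 0.127) and Myo7a (0.35, adjusted p = 0.308) did not pass. The summed signal of the cochlear markers (238702 to 248159, then 57607 to 58073) was mostly that of Coch and Otos, with 7-week means of 82143.5 and 73912. The 5 genes listed for brown fat went both ways. Cox8b (-1.56) and Cox7a1 (-1.83) fell, Ucp1 (4.25) and Cidea (1.03) rose and Elovl3 did not pass. Their summed signals were 11433 to 14379 and then 10088 to 10475, of which Cox8b alone had means of 8788 and then 2935. No marker in these lists was at 0. Array medians, in signal units, were 766.3 to 800.45 at 7 weeks and 843.95 to 859.35 at 36 weeks, so they were higher on every 36-week array.

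Promoter sequence is shown for the genes with the smallest p among those with a single window and no other gene in its upstream part, and for Ndufs8, whose probe sets disagree. The sequences are the 250 bases before the start of the RefSeq gene on GRCm38.p6, 5′ to 3′ on the gene's strand, with matches to the motifs below in capitals. Ndufb2, a small subunit of the distal membrane arm, has the window chr6:39592315-39592564 on the + strand, and an ERRalpha match is in capitals. Ndufv2, an iron-sulphur subunit of the N module, has chr17:66101560-66101809 on the - strand and no match. Ndufb5, of the distal membrane arm, has chr3:32736813-32737062 on the + strand with 2 YY1 matches. Ndufs8, an iron-sulphur subunit of the Q module, has chr19:3912775-3913024 on the - strand with 1 YY1 match.
Ndufb2: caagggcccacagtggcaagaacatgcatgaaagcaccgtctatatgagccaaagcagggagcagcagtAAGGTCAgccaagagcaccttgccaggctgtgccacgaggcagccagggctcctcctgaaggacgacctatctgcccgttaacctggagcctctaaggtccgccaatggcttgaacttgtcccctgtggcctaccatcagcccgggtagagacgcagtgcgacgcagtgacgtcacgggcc
Ndufv2: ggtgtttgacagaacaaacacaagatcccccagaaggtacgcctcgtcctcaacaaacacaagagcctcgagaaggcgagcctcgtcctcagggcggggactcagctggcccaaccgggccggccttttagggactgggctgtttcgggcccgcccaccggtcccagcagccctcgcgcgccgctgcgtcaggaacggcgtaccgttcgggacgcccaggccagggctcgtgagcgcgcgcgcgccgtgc
Ndufb5: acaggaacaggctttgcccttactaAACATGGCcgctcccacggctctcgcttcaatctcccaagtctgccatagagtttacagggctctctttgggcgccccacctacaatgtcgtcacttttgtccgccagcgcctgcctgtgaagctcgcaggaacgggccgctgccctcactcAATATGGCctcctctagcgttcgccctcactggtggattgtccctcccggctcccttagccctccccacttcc
Ndufs8: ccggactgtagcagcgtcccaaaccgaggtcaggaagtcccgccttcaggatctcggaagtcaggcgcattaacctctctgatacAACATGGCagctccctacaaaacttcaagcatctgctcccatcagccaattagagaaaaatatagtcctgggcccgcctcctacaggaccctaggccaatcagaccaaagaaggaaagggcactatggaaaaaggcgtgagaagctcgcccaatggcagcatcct

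Short motifs of factors known to act on nuclear respiratory genes were searched on both strands of windows from 250 bases before to 50 after the start. Such windows were found for 36 of the 39 genes, in 38 windows. Ndufa2, Ndufb9 and Ndufs1 had no entry. The YY1 motif AANATGGC was in 12 of 36 genes (33.3%), against 6.05% of all 32851 windows of the table. The NRF1 motif GCGCANGC was in 8 (22.2%, against 9.95%), the GABPA motif CCGGAAG in 5 (13.9%, against 8.86%) and the ERRalpha motif AAGGTCA in 2 (5.56%, against 4.72%). No matches of different motifs overlapped in the members. YY1 matches were in 9 of the 23 genes with a window that fell and 3 of the 13 that did not pass, and NRF1 matches in 4 and 4. A match is a description of the letters and says nothing on binding.

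In the distal membrane arm, 8 of the 10 Ndufb genes fell, with a median of -0.45. Ndufb9, a small accessory subunit of the LYR protein family, had signals of 26792, 26011 and 26639 at 7 weeks and 15340, 13554 and 14635 at 36 weeks. The groups were far apart, and the 36-week mean was 54.8% of the 7-week mean (log2 difference -0.87 ± 0.07 SE, n = 3 arrays per age, limma adjusted p = 4.32e-06). Ndufb11, a subunit encoded on the X chromosome, had 20589, 26545 and 26048, then 11998, 13132 and 12618. Its 7-week array 1 was lower than the other 7-week arrays but still above every 36-week array, and its mean fell to 51.6% (-0.94 ± 0.10, adjusted p = 3.34e-05). Ndufb2 had 10529, 10587 and 9851, then 5808, 6340 and 6354, a fall to 59.7% (-0.74 ± 0.08, adjusted p = 3.79e-05). By their brightest probe sets the 3 genes thus kept between 51.6% and 59.7% of their 7-week mean, with no overlap of the ages. Their other tested probe sets also fell, to 60.4% and 76.7% for Ndufb11, 75.8% for Ndufb2 and 59.7% for Ndufb9.

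Ndufb5 had signals of 11126, 10377 and 10860 at 7 weeks and 7827, 8322 and 7471 at 36 weeks, again without overlap (-0.45 ± 0.07, limma adjusted p = 0.000943). Ndufb8 (-0.46), Ndufb10 (-0.45) and Ndufb7 (-0.28) fell. Ndufb6 fell as well (-0.44, adjusted p = 0.0284), with signals of 7500, 8467 and 7809 and then 7445, 5087 and 5262. The 36-week array 1 of Ndufb6 thus nearly met the lowest 7-week array. Its call was lost without 7-week array 2 or 3 or without 36-week array 2 or 3 (-0.34 to -0.44, adjusted p 0.0609 to 0.107). That of Ndufb7 was lost without 7-week array 1 or 36-week array 2 (-0.24 and -0.26, adjusted p 0.0507 and 0.0516). The other tested probe set of Ndufb6 fell without overlap (-0.79, adjusted p = 0.000382), while that of Ndufb7 did not pass (-0.26, adjusted p = 0.107). Ndufb3 and Ndufb1 did not pass, with 95% intervals of -0.37 to -0.00 and -0.74 to 0.46. Ndufb1 was dim, and its 36-week array 2 (586.3) lay well below arrays 1 and 3 (1141 and 1317).

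**Figure D2:**
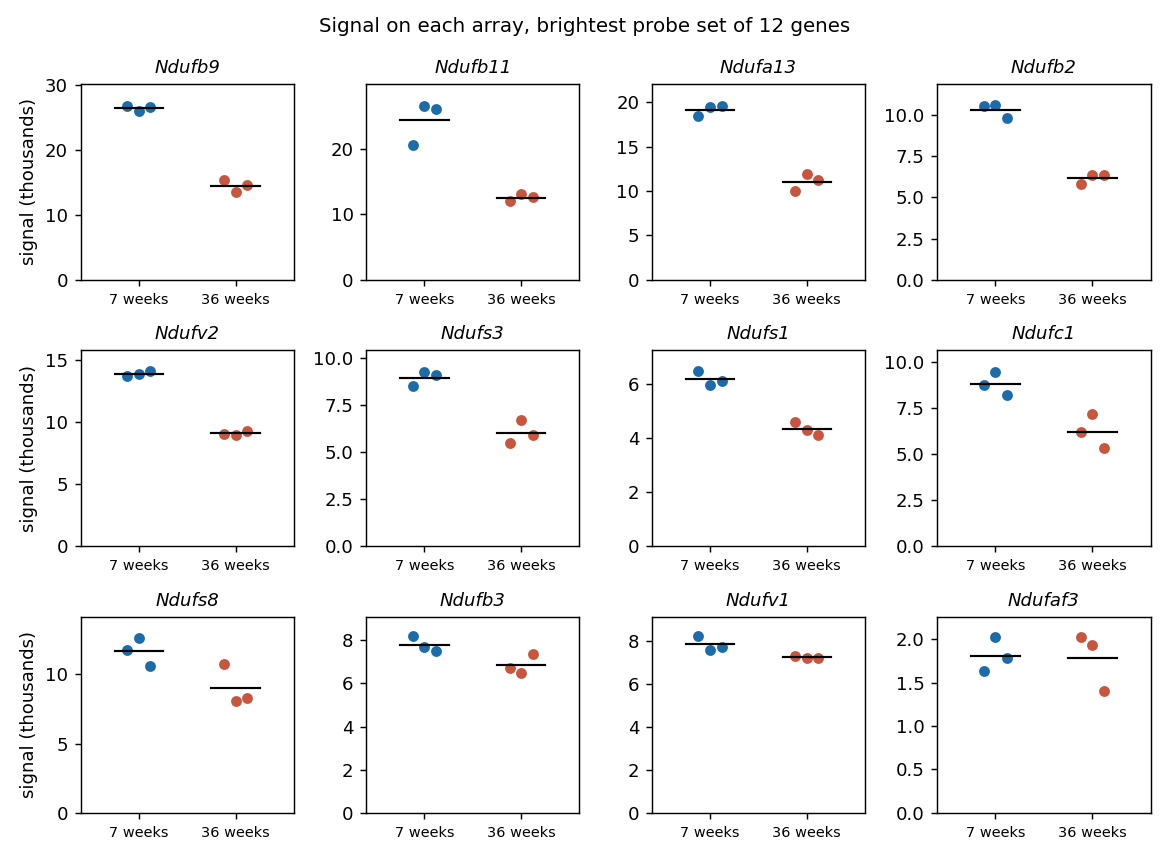
Signal of the brightest probe set of 12 complex I genes on each array (axis divided as its label states), with 7 weeks in blue, 36 weeks in red and the mean of 3 arrays as a line. Vertical axes start at 0 and differ between panels; in the first 8 panels the ages do not overlap, while Ndufs8 and Ndufaf3 overlap.

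Among the Ndufa genes, accessory subunits spread over both arms, 9 of 12 fell and the median was -0.35. Ndufa13, also known as Grim19, a membrane arm subunit, had signals of 18501, 19406 and 19605 at 7 weeks and 10048, 11886 and 11247 at 36 weeks. That was 57.7% of the 7-week mean with no overlap (-0.79 ± 0.08, limma adjusted p = 2.24e-05). Its probe set name ends in _s_at, a kind that can bind transcripts of related genes. Ndufa4, now regarded as a complex IV protein in spite of its name, had 19464, 18264 and 18240, then 14655, 14938 and 14194 (-0.35 ± 0.06, adjusted p = 0.00176). Every 36-week array was below the 7-week arrays, which lay close together.

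In the peripheral arm, the Q module subunit Ndufa5 had 6654, 6441 and 6804, then 4710, 5044 and 5165 (-0.41 ± 0.08, limma adjusted p = 0.00274). Ndufa2, an N module subunit, had 9513, 10116 and 7930, then 6803, 6244 and 6478 (-0.49 ± 0.10, adjusted p = 0.00319). Both separated the ages, though the 7-week arrays of Ndufa2 were widely spread. Ndufa1, a small membrane arm subunit, had the highest mean signal of its group. Its arrays read 28045, 29527 and 25644, then 23160, 22219 and 22702 (-0.29 ± 0.07, adjusted p = 0.00818). Ndufa12, a relative of the assembly factor Ndufaf2, also fell (-0.43), as did Ndufa9 (-0.37), Ndufa6 (-0.34) and Ndufa7 (-0.27).

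The call of Ndufa7 was lost without 7-week array 1 or 2 or without 36-week array 1 or 3 (-0.23 to -0.27, limma adjusted p 0.0525 to 0.0829). Ndufa8, Ndufa10 and Ndufa3 did not pass, with differences of -0.24, -0.17 and -0.10 and 95% intervals of -0.49 to 0.01, -0.35 to 0.02 and -0.24 to 0.04. The other tested probe set of Ndufa3, with 9846, 11078 and 10393, then 8259, 8427 and 9018, fell without overlap (-0.28, adjusted p = 0.0163). Without 36-week array 2, Ndufa8 passed (-0.36, adjusted p = 0.0323).

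Of the Ndufs genes, which name the iron-sulphur protein fraction, 4 of 6 fell and the median was -0.43. Ndufs3, a Q module core subunit, had signals of 8508, 9282 and 9076 at 7 weeks and 5497, 6682 and 5919 at 36 weeks, or 67.4% of the 7-week mean (-0.57 ± 0.09, limma adjusted p = 0.000694). Ndufs1, the large iron-sulphur subunit of the N module, had 6484, 5962 and 6121, then 4599, 4297 and 4134 (-0.51 ± 0.09, adjusted p = 0.00109). Neither gene overlapped between ages. Ndufs4, an accessory N module subunit, had 3344, 3199 and 3267, then 2478, 2689 and 1886 (-0.48 ± 0.13, adjusted p = 0.0187). With the mean of its probe sets the difference was -0.03 (adjusted p = 0.88). By the brightest probe set 36-week array 3 was the lowest, and the call was lost without that array (-0.34, adjusted p = 0.0557) or without 7-week array 1 (-0.47, adjusted p = 0.0524). Ndufs5 and Ndufs7, the latter a Q module iron-sulphur subunit, did not pass by their brightest probe sets (-0.21, 95% interval -0.44 to 0.01, and -0.12, -0.27 to 0.04).

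Ndufs8 is the member whose probe sets disagreed most. Its brightest probe set had signals of 11749, 12647 and 10600 at 7 weeks and 10729, 8093 and 8286 at 36 weeks, and the ages overlapped through 36-week array 1 (-0.37 ± 0.11, limma adjusted p = 0.0264). That call was lost without 7-week array 1 or 2 or without 36-week array 2 or 3 (-0.30 to -0.37, adjusted p 0.0635 to 0.0999). Of its 5 other probe sets 2 fell (-0.90, adjusted p = 7.77e-05, and -0.74, adjusted p = 0.000123). The first had 7954, 8136 and 9066, then 4092, 4212 and 5135, with no overlap. Its dimmest probe set rose by 0.72 (adjusted p = 0.0293), with 1266, 1162 and 1697, then 2635, 1567 and 2823, and there the ages overlapped through 36-week array 2. The remaining probe sets, at 0.30 and -0.08, did not pass. No single direction was therefore given by all probe sets of Ndufs8.

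Of the flavoprotein fraction, Ndufv2 and Ndufv3 fell and Ndufv1 did not pass. Ndufv2 had signals of 13747, 13863 and 14129 at 7 weeks and 9067, 8990 and 9315 at 36 weeks, which was 65.6% of the 7-week mean (-0.61 ± 0.07, limma adjusted p = 4.88e-05). Both ages were tight and far apart. Ndufv3, an accessory N module subunit, had 13145, 13784 and 13130, then 11637, 10054 and 11295 (-0.28 ± 0.08, adjusted p = 0.0158). Its call was lost without 7-week array 2 or 36-week array 2 (-0.26 and -0.22, adjusted p 0.0534 and 0.0644). Ndufv1, which binds NADH and flavin mononucleotide, had 8238, 7551 and 7718, then 7298, 7209 and 7198 (-0.11, 95% interval -0.28 to 0.05, adjusted p = 0.27). The ages did not overlap in Ndufv1 although it missed the threshold. Another Ndufv1 probe set, its name ending in _a_at, fell by 0.79 (adjusted p = 0.000125), from 8616, 8793 and 7125 to 4926, 4540 and 4579.

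Ndufab1, the mitochondrial acyl carrier protein, and the small membrane arm subunits Ndufc1 and Ndufc2 all fell. Ndufab1 had signals of 5857, 6489 and 6872 at 7 weeks and 4514, 5096 and 4364 at 36 weeks (-0.46 ± 0.10, limma adjusted p = 0.00438). Ndufc1 had 8753, 9463 and 8184, then 6177, 7167 and 5313 (-0.51 ± 0.11, adjusted p = 0.00524). Ndufc2 had 9346, 12350 and 10510, then 5725, 6504 and 8646 (-0.63 ± 0.15, adjusted p = 0.00704). The ages did not overlap in any of them, and the 36-week arrays of Ndufc2 were the most spread. The probe sets of Ndufab1 and Ndufc2 end in _s_at, and the other tested probe set of each did not pass (-0.32, adjusted p = 0.0932, and -0.26, adjusted p = 0.069).

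Quantile normalization in place of the deposited scaling ended 7 calls. Ndufa1 went to -0.12 (limma adjusted p = 0.149), Ndufa4 to -0.17 (adjusted p = 0.0841) and Ndufv3 to -0.16 (adjusted p = 0.134). Ndufa7, Ndufb6, Ndufb7 and Ndufs8 went to -0.20, -0.37, -0.19 and -0.28 (adjusted p 0.0617 to 0.0892). Without the intensity trend the calls of Ndufa1, Ndufa6, Ndufa7, Ndufb6, Ndufb7, Ndufs8 and Ndufv3 were lost (adjusted p 0.0534 to 0.0975).

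By place in the enzyme, every class held genes that fell. Among all genes 17.3% were lower, and among all genes with a mean signal over 4000 the share was 36.3%. In the catalytic core, 2 of 3 N module genes (median -0.51) and 2 of 3 Q module genes (-0.37) fell. All 6 accessory N module genes with a probe set of 1 symbol fell (median -0.38), as did Ndufa5 of the Q module. In the proximal membrane arm 5 of 9 accessory genes fell (median -0.29), and in the distal arm 8 of 10 (median -0.45). Ndufs6, listed in the accessory N module, had only a probe set shared with Ndufs6b, which did not pass (-0.14, limma adjusted p = 0.392). Differences between the classes were not tested. For the 7 subunits encoded by mitochondrial DNA no probe set with 1 symbol was found under the names searched, so they were not analysed.

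The 5 Ndufaf assembly factors were dim, with mean 7-week signals of 899.5 to 1813, and 0 of 5 passed in either direction in limma. Their median of -0.30 went to -0.10 without 36-week array 2. Ndufaf1, of the assembly complex for the membrane arm, had signals of 1396, 1315 and 1306 at 7 weeks and 1229, 884.1 and 1097 at 36 weeks (-0.32, 95% interval -0.69 to 0.05, adjusted p = 0.163). By the brightest probe sets it was the only assembly factor without overlap. Ndufaf7, a mitochondrial methyltransferase, had 1026, 999.0 and 674.0, then 725.0, 676.6 and 579.4 (-0.40, -0.90 to 0.10, adjusted p = 0.202). Ndufaf5, which hydroxylates Ndufs7, had 1865, 1697 and 1593, then 1664, 887.0 and 1777 (-0.30, -0.81 to 0.21, adjusted p = 0.345). In Ndufaf5 the 36-week array 2 alone was low, and the difference was 0.0035 without it.

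Ndufaf4 and Ndufaf3 act together early in assembly. Ndufaf4 had 1724, 1272 and 1448, then 1424, 1170 and 1350 (-0.16, 95% interval -0.51 to 0.19, limma adjusted p = 0.478). Ndufaf3 had 1634, 2025 and 1781, then 2023, 1930 and 1406 (-0.03, -0.39 to 0.33, adjusted p = 0.90). The ages overlapped in both of these probe sets. A dimmer probe set of Ndufaf4 had 696.6, 726.8 and 876.8, then 504.9, 457.5 and 512.9, without overlap, and did not pass either (-0.59, 95% interval -1.09 to -0.08, adjusted p = 0.07). By its brightest probe set, the difference of Ndufaf3 was above 0 without 7-week array 2 (0.05) or 36-week array 3 (0.13). The intervals of 4 of the 5 assembly factors, by their brightest probe sets, include -0.42, the median of the other 34 members, and that of Ndufaf3 ends at -0.39. The difference between assembly factors and subunits was not tested.

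**Figure D3:**
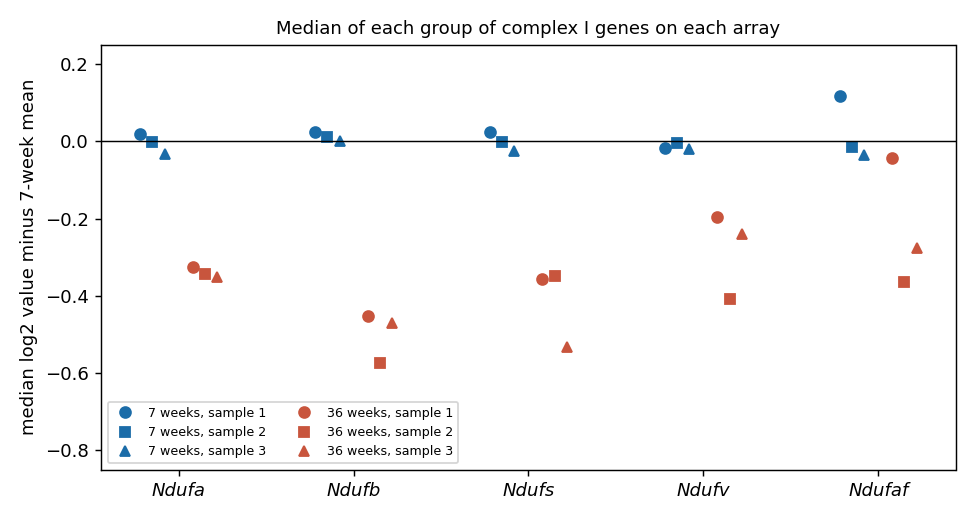
Median, over the genes of each group, of the log2 value on each array minus that gene's 7-week mean; marker shapes are samples 1 to 3 of 7 weeks (blue) and 36 weeks (red). In each group the 36-week arrays lie below the 7-week arrays, and for Ndufaf the 36-week sample 1, at -0.04, lies just below the lowest 7-week sample, at -0.03.

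Over all members the median log2 value minus the 7-week mean was -0.32, -0.38 and -0.39 on arrays 1, 2 and 3. For Ndufb the medians were -0.45, -0.57 and -0.47, and for Ndufs -0.36, -0.35 and -0.53. For Ndufaf they were -0.04, -0.36 and -0.28, so the assembly factors were the group that varied most between these arrays.

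Counted by probe set, 70 of the 74 were tested, and 45 fell, 1 rose and 24 did not pass. Among all tested probe sets 17.3% fell and 16.2% rose. The 4 not tested were dim probe sets of Ndufa10, Ndufa12, Ndufab1 and Ndufb9, whose other probe sets were tested. With any probe set counted, 29 of 39 genes had a fall, a count that favours genes with many probe sets. The share of all genes was not counted in this way. Of 19 genes with several tested probe sets, all passed as lower in 9, and the calls differed in 9. Besides Ndufs8 and Ndufv1, Ndufs7 stood out, since its brightest probe set did not pass while the other, ending in _a_at, fell by 0.78 (limma adjusted p = 8.55e-05). That probe set had 7550, 7914 and 7503, then 4363, 4909 and 4050, with no overlap. The 5 probe sets of Ndufa7 ran from -0.70 to 0.08, and those of Ndufs4 from -0.48 to 0.24. The spread within a gene had a median of 0.35 over the 19 genes, beside 0.40 over all 2732 genes with several tested probe sets.

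**Figure D4:**
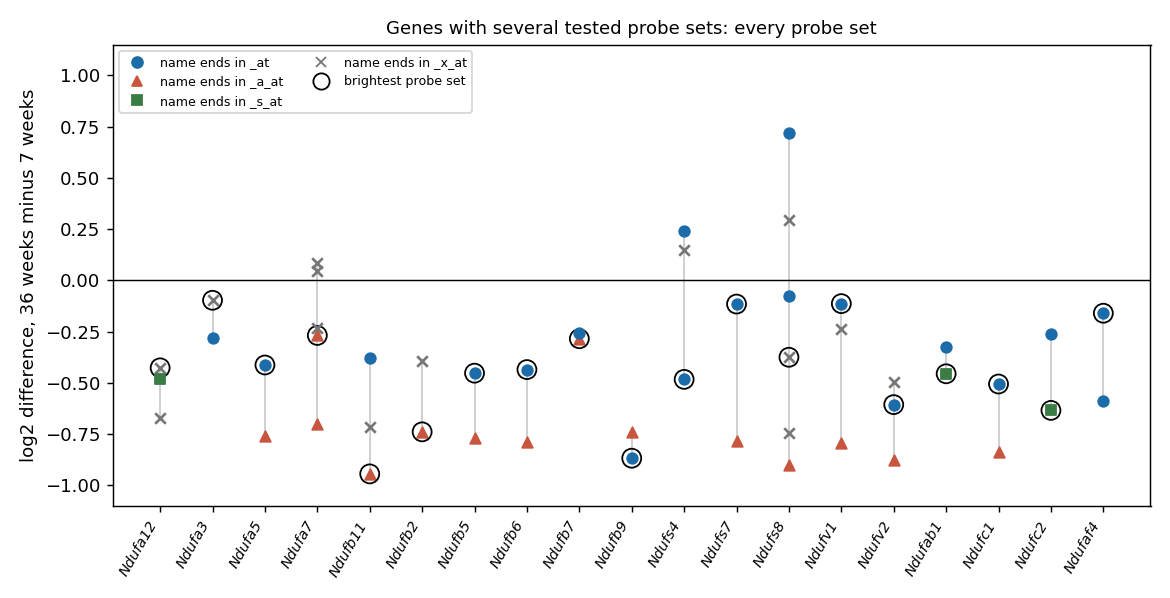
Log2 difference, 36 weeks minus 7 weeks, of every tested probe set of the 19 complex I genes with several; shape and colour give the ending of the probe set's name and a ring marks the brightest. Most points lie below 0, and Ndufs8 spans -0.90 to 0.72.

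Genes that serve complex I without the Nduf name gave the following counts in the same fit. Among all genes counted the same way, 17.3% were lower and 17.1% higher. Of 12 other assembly factors tested, Aifm1 (-0.70), Tmem126a (-0.61) and Tmem70 (-0.47) fell, 0 rose and the median was -0.14. Of 9 genes of iron-sulphur cluster assembly, the chaperone Hspa9 (-0.74) and the ferredoxin Fdx1 (-0.73) fell, 0 rose and the median was -0.10. Of 7 genes of coenzyme Q synthesis, Coq10a (-0.67), Coq7 (-0.70), Coq8a (-0.59) and Coq9 (-0.34) fell and Coq8b rose (0.57). Of 7 mitochondrial proteases Lonp1 fell (-0.54), and Clpx was next by p (-0.59, limma adjusted p = 0.0688). Of 12 regulators of nuclear respiratory genes, the coactivator Ppargc1a fell (-0.76), while its relative Ppargc1b (0.73), the mitochondrial RNA polymerase Polrmt (0.50) and Gabpb1 (0.70) rose. Nrf1, Gabpa, Esrra and Yy1, whose motifs were searched, did not pass (0.05, -0.22, -0.08 and -0.03).

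The other complexes of oxidative phosphorylation gave these counts, beside 17.3% lower and 17.1% higher among all genes. Among all genes with a mean signal over 4000 the shares were 36.3% and 23.1%. In complex III 8 of 9 genes fell, among them Uqcr11 (-0.89) and Cyc1 (-0.67), with a median of -0.44. In ATP synthase 12 of 15 fell, among them Atp5j (-0.79) and Atp5c1 (-0.67), with a median of -0.46. In complex IV without its muscle isoforms 5 of 8 fell, among them Cox6c (-0.67) and Cox5b (-0.49), with a median of -0.27. In complex II Sdha (-0.52) and Sdhb (-0.49) fell and Sdhc rose (0.47). Of 8 other mitochondrial genes 4 fell, among them Vdac2 (-0.51) and Vdac1 (-0.84), and Tomm22 rose (0.63). Beside these lists, 26 of the 34 members other than Ndufaf were lower, with a median of -0.42. Without Ndufa4 it was 25 of 33, with a median of -0.43, and no difference between lists was tested.

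**Figure D5:**
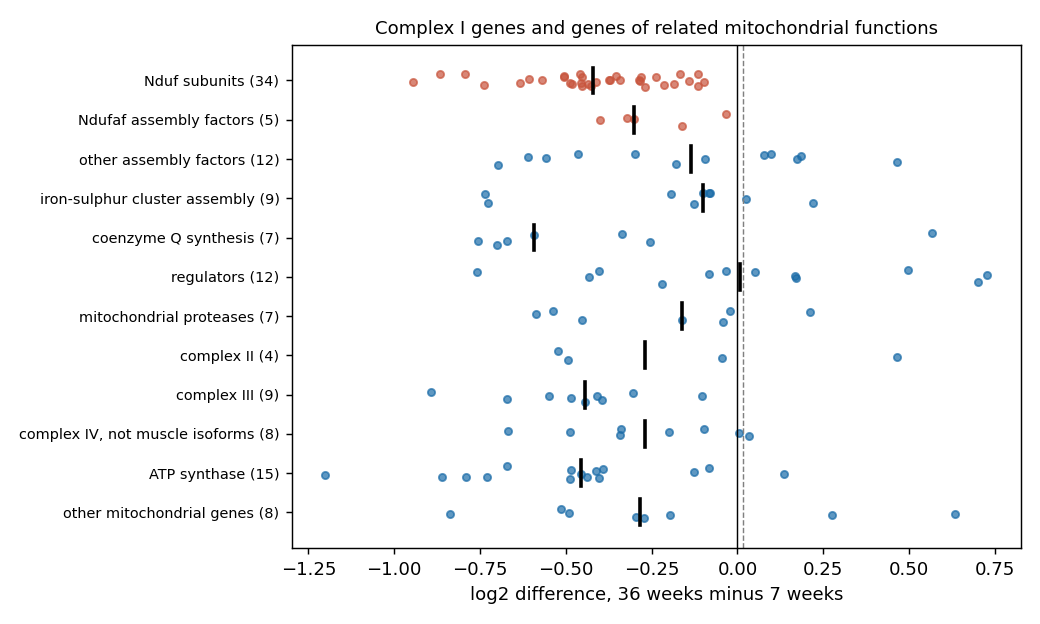
Log2 difference, 36 weeks minus 7 weeks, of each tested gene (points, vertical scatter for sight only) in the complex I groups (red) and related mitochondrial lists (blue), with the list's median as a bar and its number of genes in brackets. The 34 genes labelled Nduf subunits, Ndufa4 included, lie below 0 with a median of -0.42, and the median of the regulators is 0.01; the dashed line is the median of all tested probe sets at 0.02.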

How the data were processed

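Biotin-labelled cRNA made from cochlear total RNA was hybridised to Affymetrix arrays, per the labels' protocols. The authors deposited linear intensity values of 1 colour, 1 per probe set and array. The summarising software and the absolute scale are not given in the sources used. All arrays had a like trimmed mean (1489.8 to 1492.5 with the lowest 2% and everything over the 98th percentile removed). Of the 22626 probe sets, the platform table gives 1 symbol to 20380, several to 691 and none to 1555.

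The scale used was log2(signal + 50), on which changes of dim probe sets are understated. limma 3.58.1 (R 4.3.3; lmFit, then eBayes with an intensity trend) compared the ages, unpaired and two-sided, over the 13575 probe sets with a mean log2 value over the 40th percentile. P-values were adjusted by Benjamini-Hochberg over all of these. The script was tested on simulated data. With 3 arrays per age an exact permutation p is at least 0.1, so none was used. Tables and figures were made with Python 3.11.15, pandas 2.3.3 and matplotlib 3.10.9.

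Every member may be named. Signals on all arrays are given, per group, for the 4 genes with the smallest p, the brightest gene and any gene with probe sets called in opposite directions, and of each related list the 2 genes with the smallest p are named. Others were named after their values were seen. The members, lists and motifs were chosen with earlier results of these data known. Other offsets, normalizations, filters, probe set rules, a replicate block and left-out arrays were tried as alternatives. The samples were treated as unpaired. Deviations of same-numbered arrays correlated at 0.05, -0.01 and -0.003, which cannot show that no weak batch was shared. Motifs and promoters are from RefSeq windows on GRCm38.p6.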

Additional observations from a re-analysis of the deposited data

How the results depend on the processing

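Of 18 alternatives, 15 of the 39 genes were called lower in every one that gave them a value, and 6 in none. The main count of 26 lower became 19 with quantile normalization or without the intensity trend, and 30 with centring on the array median. It was 27 with the mean of a gene's probe sets, 25 without the filter and 22 without _x_at and _s_at probe sets. In that last setting Ndufa2, Ndufa12, Ndufa13 and Ndufaf7 had no tested probe set left and so no value. Ndufab1 and Ndufc2 lost the call there and Ndufa3 gained it. With the replicate block the count was 26, and the median stayed at -0.37. It was 26 with offsets of 1 or 16 and with the filter at the 60th percentile. The alternatives chosen after seeing the data were a filter on the mean linear signal (26) and the dimmest tested probe set (23 lower and 1 higher, Ndufs8).

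Centring on the array median moved the median of all tested probe sets from 0.02 to -0.09. It gave -0.48 for all members, -0.45 for Ndufa, -0.56 for Ndufb and -0.38 for Ndufv. Quantile normalization (all probe sets -0.02) gave -0.23 for Ndufa, -0.37 for Ndufb and -0.16 for Ndufv, and turned Ndufa3 to 0.031. The median of the members that had a value was -0.32 without _x_at and _s_at probe sets. The mean of a gene's probe sets gave -0.51 for Ndufb and -0.38 for Ndufv. The dimmest probe set gave -0.50 for Ndufv and turned Ndufa7 (0.083), Ndufs4 (0.24) and Ndufs8 (0.72).

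With 1 array left out, the count ranged from 22 to 25 lower with 0 higher. The medians ranged from -0.43 to -0.34 for all members, -0.46 to -0.41 for Ndufb and -0.32 to -0.22 for Ndufv. The difference of Ndufb1 ranged from -0.36 to 0.19 and that of Ndufaf5 from -0.48 to 0.0035, and both turned without 36-week array 2. That of Ndufaf3 ranged from -0.13 to 0.13 and turned without 7-week array 2 (0.05) or 36-week array 3 (0.13). The causes of these changes were not tested. The number of arrays limits the precision, and standard errors were 0.27 for the dim Ndufb1 and 0.16 to 0.23 for the assembly factors.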

Other observations

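Probe sets with several symbols lay outside the members. Those of the Ndufb4 family, whose names cover Ndufb4, Ndufb4b and Ndufb4c, fell (log2 differences -0.43 and -0.75, limma adjusted p = 0.00326 and 0.000449). The second had signals of 5054, 5411 and 4438 at 7 weeks and 2603, 3091 and 3078 at 36 weeks. The probe set shared by Ndufa11 and Ndufa11b fell by 0.66 (adjusted p = 5.78e-05), from 12839, 12853 and 11671 to 7909, 7998 and 7597, and that shared by Ndufab1 and Ndufab1-ps fell by 0.63 (adjusted p = 0.00673). Those shared by Ndufs6 and Ndufs6b (-0.14), Ndufs5 and Ndufs5-ps (-0.11) and Ndufb2 and Adck2 (-0.35) did not pass, and that of Yjefn3 and Ndufa13 was not tested.

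The ending of a probe set's name went with the signed difference among the members, a pattern noticed in the data and given without a test. A name ending in _a_at marks probes that bind several transcripts of a gene. In 11 complex I genes with tested probe sets of both endings, the _a_at difference minus the _at difference had a median of -0.35, and it was below 0 in 10 of 11 genes (90.9%), the exception being Ndufb9. For Ndufs8 the _at value (0.32) was the mean of 2 probe sets, at -0.08 and 0.72. Over all 755 genes with both endings the median was -0.03 and 52.7% were below 0. By their brightest probe sets 26 of the 39 members were lower and 0 higher, while of all genes 17.3% were lower and 17.1% higher. Signed values can therefore cancel in the comparison over all genes. Whether falling genes in general show the same pattern was not tested.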
